A study of Mus musculus with 12 samples.

Results

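The genes described here are 39 genes of fatty acid and triglyceride synthesis. They were taken by gene name from a table of raw read counts for 55004 mouse genes, and each of the 39 matched 1 row. The names cover the supply of acetyl-CoA and NADPH, the carboxylases and the synthase, the stearoyl-CoA desaturases, the elongases, the front-end desaturases, 3 regulators, the long-chain acyl-CoA synthetases and the enzymes that assemble glycerolipids. The study exposed cultured lines of mouse testis origin to mono-(2-ethylhexyl) phthalate (MEHP), the main metabolite of the plasticiser DEHP. The first group was the Sertoli line TM4 with 100 uM MEHP for 72 h, and the second was TM4 with 0.1% DMSO, the control. The third group was the Leydig line TM3 with 100 uM MEHP for 72 h, and the fourth was TM3 with 0.1% DMSO. The labels also call the lines rat, while their organism field and the gene table are mouse. All 4 groups grew in the same serum-containing medium, and each has 3 libraries of poly-A-selected RNA. Whether the 3 libraries of a group stem from separate cultures is not stated in the labels. A p-value here covers only the spread among these libraries, which may be technical.

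Cells build saturated fatty acids from acetyl-CoA in the cytosol. ATP citrate lyase supplies the acetyl-CoA, acetyl-CoA carboxylase turns it into malonyl-CoA, and fatty acid synthase joins these units into palmitate at the cost of NADPH. Elongases and desaturases then lengthen the chains and add double bonds, and acyl-CoA synthetases activate fatty acids for further use. Acyltransferases, the lipin phosphatases and diacylglycerol acyltransferases place the chains on glycerol 3-phosphate to give phospholipids and triglycerides. The transcription factor SREBP-1 (gene Srebf1) drives many of these genes, and in the testis Sertoli cells supply polyunsaturated lipids to germ cells while Leydig cells hold lipid droplets as a store for steroid synthesis.

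Library totals ran from 15771908 to 18203115 counts, and 3 counts in a library, taken as the limit that a count of 0 allows, stood for 0.165 to 0.190 CPM (counts scaled to 1000000 per library, after TMM factors). Such limits cover counting error only. The marker lists did not set the lines apart in 1 direction. Of 9 Leydig markers Lhcgr, Hsd3b1, Hsd3b6 and Hsd17b3 had no count in any library, and the summed Leydig level was 8.03 to 10.8 CPM in TM4 with MEHP and 8.71 to 10.5 CPM in TM4 with DMSO, against 10.1 to 11.9 CPM in TM3 with MEHP and 8.67 to 10.6 CPM in TM3 with DMSO. Of 12 Sertoli markers Fshr and Dmrt1 had no count, and Wt1 averaged 0.0566 ± 0.0574 CPM in TM4 with MEHP and 0.0776 ± 0.0857 CPM in TM4 with DMSO, against 169 ± 2.20 and 167 ± 7.05 CPM in TM3 with MEHP and with DMSO (mean ± SD, n = 3 each). The summed Sertoli level was 63.5 to 68.4 CPM in TM4 with MEHP and 62.4 to 66.6 CPM with DMSO, against 216 to 218 CPM in TM3 with MEHP and 212 to 229 CPM with DMSO. Without Wt1 the other 11 markers stood the other way, at 63.4 to 68.3 CPM in TM4 with MEHP and 62.3 to 66.6 CPM with DMSO, against 46.6 to 49.7 CPM in TM3 with MEHP and 49.3 to 53.8 CPM with DMSO. Under DMSO Sox9, Dhh and Gata4 were higher in TM4 than in TM3 by the edgeR test, Wt1, Rhox5, Inha and Sox8 were lower, and Amh did not pass. The names TM4 and TM3 are therefore used for the lines without a claim on cell identity. Summed adipocyte markers did not exceed 3.37 CPM in any library.

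With MEHP 16 of the 39 lipid synthesis genes passed the test in TM4 and 13 in TM3, and the others did not pass or had too few counts to be tested. Of all genes tested 30.9% passed in TM4 and 16.5% in TM3. In TM3 the lipid synthesis genes that passed the test all rose, led by Acaca, Acss2, Scd1, Me1, Acsl3 and Scd2. In TM4 the synthase gene Fasn, the regulator gene Srebf1 and Scd2 fell, while the genes of the acyltransferases Agpat1 and Agpat2, the desaturase Fads2 and the citrate carrier Slc25a1 rose. In all, 32 of the 39 genes had enough counts to be tested among 15700 genes, with edgeR's quasi-likelihood test on the 12 libraries and Benjamini-Hochberg adjustment over all of them. An adjusted p under 0.05 counts as passed, and a log2 fold change is given as MEHP over DMSO with its standard error (SE). The 7 untested genes were Elovl2, Elovl3, Elovl4, Thrsp, Mlxipl, Acsl6 and Pnpla3. They had 0 to 5 counts in a library.

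In TM4 9 of the 32 tested genes rose and 7 fell with MEHP. Among all genes tested 15.9% rose and 15.0% fell, and 50% of the lipid synthesis genes passed against 30.9% of all genes. The median log2 fold change was 0.03 over the lipid synthesis genes and 0.00 over all genes. For 17 of the 32 genes the libraries with MEHP did not overlap those with DMSO, which held for 38.8% of all genes. In TM3 13 of the 32 genes rose and 0 fell, against 9.04% and 7.43% of all genes, and the median was 0.16 against 0.01 for all genes. The libraries did not overlap for 20 of the 32 genes in TM3, against 35.4% of all genes. The count of 0 falls in TM3 became 1 with DESeq2-type (RLE) factors or a stricter filter, and 2 in a fit of only the 6 TM3 libraries, where Agpat5 and Dgat1 passed. DESeq2 itself gave 0, and 3 tested genes (Elovl1, Agpat5 and Dgat1) had a negative fold change at an unadjusted p under 0.05 in edgeR. Without TM4 DMSO replicate 2 the count of rises in TM4 was 5, and without TM4 DMSO replicate 1 the count of falls was 4.

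The response differed between the lines for 15 of the 32 genes in a direct test of TM4 minus TM3. The difference was negative for 11 genes, whose response stood lower in TM4, and positive for 4, against 13.3% and 13.0% of all genes. The 11 were Acsl3, Scd2, Scd1, Acss2, Fasn, Me1, Acaca, Srebf1, Elovl5, Acly and Fads1, and the 4 were Slc25a1, Fads2, Agpat1 and Agpat2. The median difference was -0.14 over the lipid synthesis genes and 0.01 over all genes.

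**Figure D1:**
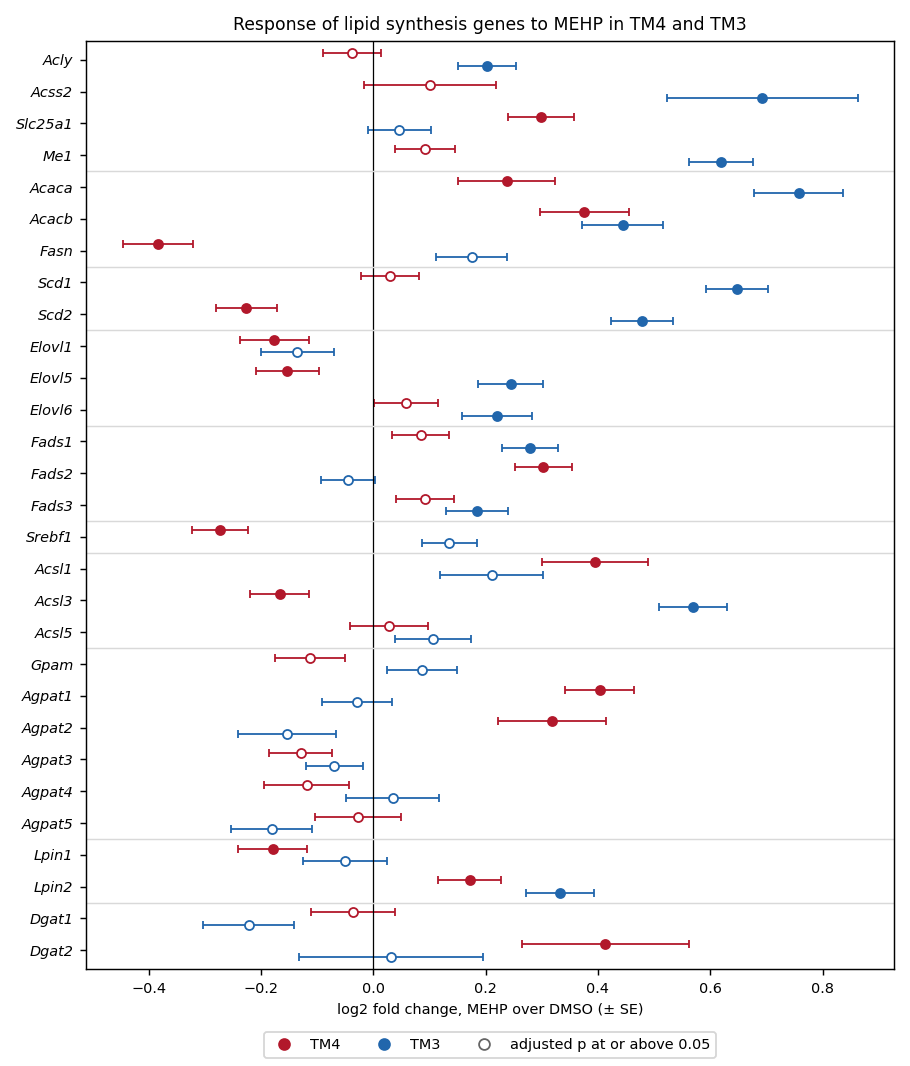
Log2 fold change of MEHP over DMSO (x axis) for the 29 genes that also pass a filter of 10 CPM in 3 libraries, in TM4 (red) and TM3 (blue), with SE bars; open circles did not pass the test, and grey lines part the functional groups. Acsl3 and Scd2 lie on opposite sides of 0 in the lines, at -0.17 ± 0.05 and -0.23 ± 0.05 in TM4 and at 0.57 ± 0.06 and 0.48 ± 0.06 in TM3.

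Promoter sequence is shown for 4 of the 15 genes whose response differed between the lines. The response to MEHP stood lower in TM4 for Fasn and Acsl3 and higher in TM4 for Slc25a1 and Agpat1. Each run is the 250 bases before the gene's start in RefSeq's GRCm38.p6 annotation, in the gene's direction, and capitals mark the CCAAT box and the E-box CACGTG on either strand (CCAAT reads ATTGG on the other strand). The Fasn window is chr11:120824548-120824797 on the minus strand, the Acsl3 window chr1:78657575-78657824 on the plus strand, the Slc25a1 window chr16:17928220-17928469 on the minus strand, and the Agpat1 window, 1 of 2 listed starts, chr17:34605611-34605860 on the plus strand.
Fasn: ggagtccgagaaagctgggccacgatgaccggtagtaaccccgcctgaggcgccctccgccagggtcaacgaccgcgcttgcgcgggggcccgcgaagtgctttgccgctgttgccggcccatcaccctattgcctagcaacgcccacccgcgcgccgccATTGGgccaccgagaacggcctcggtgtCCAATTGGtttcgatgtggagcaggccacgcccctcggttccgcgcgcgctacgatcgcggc
Acsl3: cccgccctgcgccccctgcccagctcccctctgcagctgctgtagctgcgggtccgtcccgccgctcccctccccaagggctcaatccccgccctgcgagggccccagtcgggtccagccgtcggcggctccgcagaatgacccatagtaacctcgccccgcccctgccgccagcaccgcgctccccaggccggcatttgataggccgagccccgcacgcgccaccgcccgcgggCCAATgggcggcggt
Slc25a1: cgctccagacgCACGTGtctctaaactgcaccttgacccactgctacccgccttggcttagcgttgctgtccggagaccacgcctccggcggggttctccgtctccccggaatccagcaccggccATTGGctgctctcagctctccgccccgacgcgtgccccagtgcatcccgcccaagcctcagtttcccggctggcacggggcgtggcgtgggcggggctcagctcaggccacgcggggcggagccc
Agpat1: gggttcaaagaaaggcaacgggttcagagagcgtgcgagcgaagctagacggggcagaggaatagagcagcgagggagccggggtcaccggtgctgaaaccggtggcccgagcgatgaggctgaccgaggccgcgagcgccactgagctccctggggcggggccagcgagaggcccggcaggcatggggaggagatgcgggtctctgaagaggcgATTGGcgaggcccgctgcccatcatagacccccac

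Fasn held 3 CCAAT boxes, beginning 90, 62 and 59 bases before the start, and the last of these overlap each other on opposite strands. In Acsl3 the box began 15 bases, in Agpat1 35 bases and in Slc25a1 125 bases before the start, and the Slc25a1 window also held an E-box 239 bases before it. The Agpat1 window shown lies inside the table's gene model, after the first base of that model. RefSeq windows were matched for 32 of the 39 genes. CCAAT stood in 20 of the 32, against 37.5% of the 27025 genes with a window. In some of the 20, among them Me1, Lpin2, Acsl1 and Acacb, it stood only before a listed start inside the table's gene model. CACGTG stood in 4 of 32, against 6.86% of genes. Not all genes whose response differed between the lines held these motifs. The windows of Acly, Acaca, Fads2 and Agpat2 and the other listed start of Agpat1 held neither. The only Acaca window, chr11:84195188-84195437, lies inside the table's gene model, so the sequence before the first base of Acaca was not searched. The sterol element spelling TCACNCCAC, searched on both strands, stood in 2 of 32, against 1.22% of genes. The 2 genes were Acsl1 and Mlxipl, and both matches lay before a listed start inside the gene, not before its outermost start. Mlxipl had too few counts to be tested. A longer spelling of the sterol element, also searched, stood in 0 of 32, against 0.0814% of genes. A match describes letters in the window and is not evidence of a bound factor.

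The genes that supply acetyl-CoA and NADPH rose in TM3 in 3 of 4 cases, and in TM4 only the carrier gene passed. Acly, the gene of ATP citrate lyase, had 494, 484 and 437 CPM in the TM4 libraries with MEHP and 486, 486 and 480.3 CPM in those with DMSO. In TM3 Acly had 381, 366 and 392 CPM with MEHP, against 322, 331 and 336 CPM with DMSO. The TM3 libraries with MEHP all lay above those with DMSO, while the TM4 groups overlapped. The log2 fold change of Acly was -0.04 ± 0.05 in TM4 (edgeR adjusted p = 0.630) and 0.20 ± 0.05 in TM3 (edgeR adjusted p = 0.00555), and the difference was -0.24 ± 0.07 (edgeR adjusted p = 0.0131).

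Acss2, which makes acetyl-CoA from acetate, was low in TM3, with 5.10, 6.09 and 3.94 CPM with MEHP against 3.21, 2.95 and 3.23 CPM with DMSO. In TM4 it had 17.7, 16.5 and 14.9 CPM with MEHP and 15.3, 15.5 and 14.9 CPM with DMSO. Every TM3 library with MEHP was above those with DMSO, and the TM4 groups overlapped. Of the exon bases of Acss2 9.12% are overlapped by genes on the opposite strand, and the strand setting of the counting is not given. Acss2 rose in TM3 by 0.69 ± 0.17 (edgeR adjusted p = 0.00424), and 0.10 ± 0.12 in TM4 did not pass. The difference of -0.59 ± 0.21 passed (edgeR adjusted p = 0.0326) but lost its call when any of 8 libraries was left out, as did the TM3 rise without TM3 MEHP replicate 2 (edgeR adjusted p = 0.0606). The difference then had edgeR adjusted p = 0.0702 without TM4 MEHP replicate 3, 0.0523 without TM4 DMSO replicate 1, 0.0556 without TM4 DMSO replicate 2, 0.0604 without TM3 MEHP replicate 1, 0.161 without TM3 MEHP replicate 2, 0.0534 without TM3 DMSO replicate 1, 0.0748 without TM3 DMSO replicate 2 and 0.0536 without TM3 DMSO replicate 3.

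Me1, malic enzyme and a source of cytosolic NADPH, had 121, 125 and 125 CPM in TM4 with MEHP and 117, 112 and 118 CPM with DMSO. In TM3 the values were 81.9, 80.0 and 88.1 CPM with MEHP against 55.3, 53.5 and 54.1 CPM with DMSO. The groups did not overlap in either line, with a gap far wider in TM3. Me1 rose in TM3 by 0.62 ± 0.06 (edgeR adjusted p = 4.19e-09) and stood at 0.09 ± 0.05 in TM4, which did not pass. The difference was -0.53 ± 0.08 (edgeR adjusted p = 7.66e-06). Of the 100-base windows of Me1 transcripts 14.6% also occur in other genes. Slc25a1, which exports citrate from mitochondria, passed in TM4 alone. It had 76.3, 86.5 and 84.6 CPM in TM4 with MEHP, against 66.3, 64.7 and 70.2 CPM with DMSO. In TM3 it had 132, 141 and 146 CPM with MEHP and 137, 133 and 137 CPM with DMSO. The groups were apart in TM4 and overlapped in TM3. Slc25a1 rose in TM4 by 0.30 ± 0.06 (edgeR adjusted p = 0.000238), stood at 0.05 ± 0.06 in TM3, and its difference of 0.25 ± 0.08 (edgeR adjusted p = 0.0206) was lost when a library was left out in 4 cases (edgeR adjusted p = 0.0630 without TM4 MEHP replicate 2, 0.0749 without TM4 DMSO replicate 2, 0.0824 without TM3 MEHP replicate 1 and 0.0501 without TM3 DMSO replicate 3).

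The carboxylase genes rose with MEHP in both lines, and the synthase gene fell in TM4. Acaca (ENSMUSG00000020532, mm10 chr11:84129672-84401651, plus strand) encodes acetyl-CoA carboxylase 1, which makes malonyl-CoA for synthesis in the cytosol. It had 68.5, 59.9 and 51.1 CPM in TM4 with MEHP, against 54.7, 50.6 and 46.9 CPM with DMSO. The TM3 libraries had 182, 174 and 176 CPM with MEHP, against 100.3, 115 and 99.0 CPM with DMSO. The TM3 groups lay wide apart, while the TM4 groups overlapped. Acaca rose by 0.76 ± 0.08 in TM3 (edgeR adjusted p = 6.86e-07) and by 0.24 ± 0.09 in TM4 (edgeR adjusted p = 0.0404), with a difference of -0.52 ± 0.12 (edgeR adjusted p = 0.00220). The TM4 call was lost with RLE factors, in DESeq2, in a fit of the 6 TM4 libraries and without any of 4 libraries (edgeR adjusted p = 0.210 without TM4 MEHP replicate 1, 0.101 without TM4 MEHP replicate 2, 0.109 without TM4 DMSO replicate 2 and 0.157 without TM4 DMSO replicate 3).

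The processed pseudogene Gm5182 shares sequence with Acaca. Of the 100-base windows of Acaca transcripts 23.7% also occur in another gene, nearly all in Gm5182, whose counts were 21.2% to 32.6% of those of Acaca. With the counts of both added, the log2 fold change was 0.24 (edgeR adjusted p = 0.0318) in TM4 and 0.78 (edgeR adjusted p = 2.98e-07) in TM3 and the difference was -0.54 (edgeR adjusted p = 0.00106), and all calls were kept.

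Acacb encodes the carboxylase at the mitochondrial surface, whose malonyl-CoA restrains fatty acid import. Its level was 26.7, 25.1 and 27.1 CPM in TM4 with MEHP, against 19.9, 19.7 and 21.3 CPM with DMSO. In TM3 it was 51.5, 48.1 and 47.2 CPM with MEHP, against 35.9, 37.2 and 34.8 CPM with DMSO. No library with MEHP reached down to those with DMSO in either line. Acacb rose by 0.38 ± 0.08 in TM4 (edgeR adjusted p = 0.000456) and by 0.44 ± 0.07 in TM3 (edgeR adjusted p = 3.37e-05), and the difference of -0.07 ± 0.11 did not pass.

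Fasn (ENSMUSG00000025153, mm10 chr11:120805846-120824547, minus strand), the gene of fatty acid synthase, had 755, 709 and 609 CPM in TM4 with MEHP, against 939.7, 929.6 and 835 CPM with DMSO. TM3 libraries showed 751, 748 and 731 CPM with MEHP, against 622, 692 and 662 CPM with DMSO. The groups did not overlap in either line, and they stood in opposite order. Fasn fell by 0.38 ± 0.06 on the log2 scale in TM4 (edgeR adjusted p = 3.01e-05), while 0.18 ± 0.06 in TM3 did not pass (edgeR adjusted p = 0.0563). The difference was -0.56 ± 0.09 (edgeR adjusted p = 2.93e-05). Fasn passed in TM3 with upper-quartile factors, without a filter, in a fit of the 6 TM3 libraries (edgeR adjusted p = 0.00125) and without any of 4 libraries (edgeR adjusted p = 0.0173 without TM4 MEHP replicate 1, 0.0100 without TM4 MEHP replicate 3, 0.0411 without TM4 DMSO replicate 3 and 0.0341 without TM3 DMSO replicate 2). In these bulk libraries fewer cells of a type and less RNA per cell cannot be told apart.

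Within each library the ratio of Fasn to Acaca, in counts per base of gene model, was lower with MEHP in both lines. It was 17.2 to 18.6 in TM4 with MEHP, against 26.8 to 28.7 with DMSO. In TM3 it was 6.43 to 6.70 with MEHP, against 9.37 to 10.4 with DMSO. Neither pair of groups overlapped, and the exact permutation p of 0.1, two-sided, is the smallest that 3 against 3 libraries allow. With the counts of Gm5182 added to Acaca the ratio was 13.5 to 15.2 in TM4 with MEHP against 20.9 to 23.4 with DMSO, and 5.01 to 5.40 in TM3 with MEHP against 7.73 to 8.30 with DMSO.

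**Figure D2:**
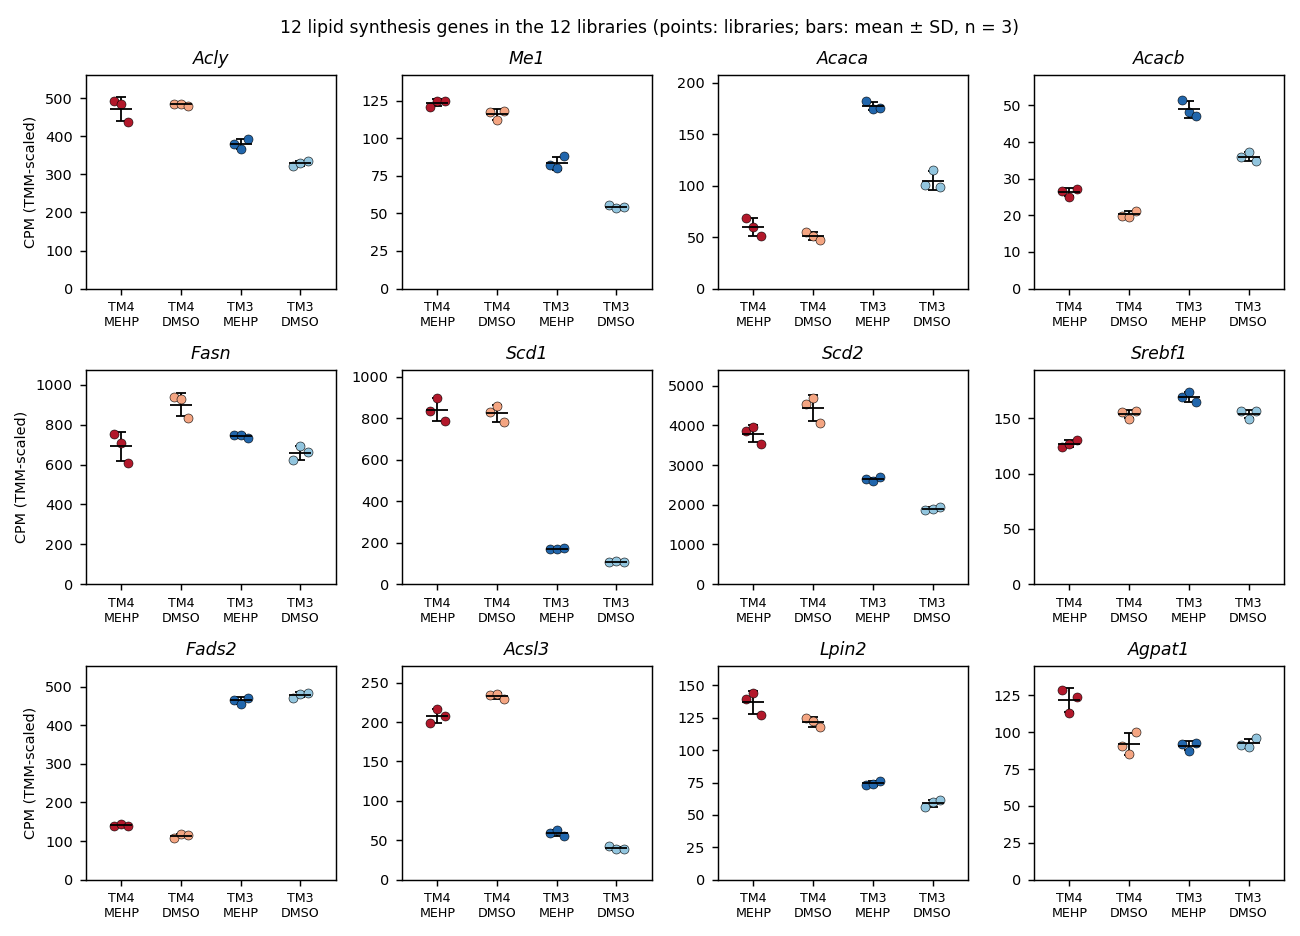
CPM (y axis, from 0) of 12 lipid synthesis genes in each of the 12 libraries, by group from TM4 with MEHP to TM3 with DMSO; points are libraries and bars the mean ± SD of 3. Fasn, Scd2, Srebf1 and Acsl3 are lower with MEHP in TM4 and higher with MEHP in TM3, whereas Fads2 and Agpat1 are higher with MEHP in TM4 only; of the TM3 values Fasn, Srebf1, Fads2 and Agpat1 did not pass the test.

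**Figure D3:**
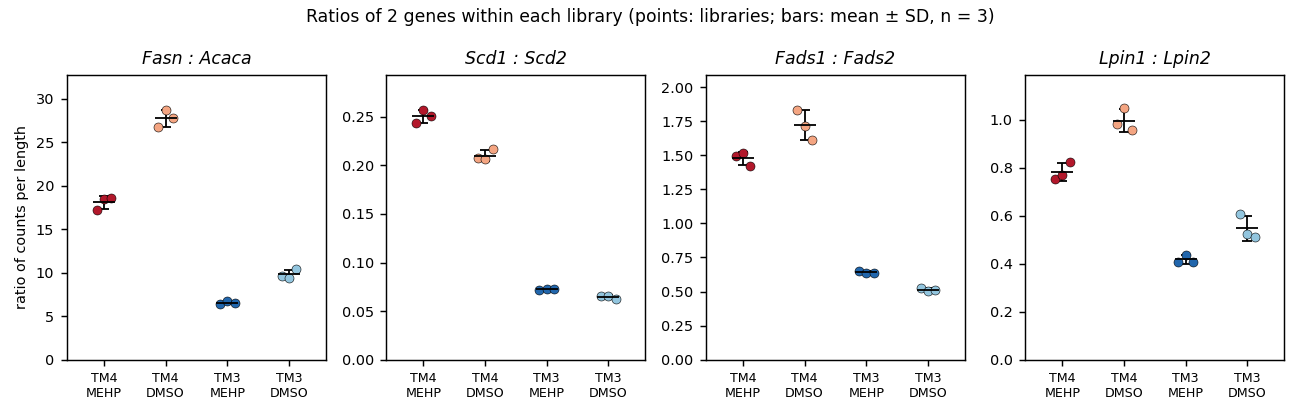
Ratio of 2 genes within each library, in counts per base of gene model (y axis, from 0), by group; points are libraries and bars the mean ± SD of 3. The ratio of Fasn to Acaca lies below the DMSO libraries in both lines with MEHP, and that of Fads1 to Fads2 lies below them in TM4 and above them in TM3.

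The stearoyl-CoA desaturases place the double bond that turns stearate into oleate. Both genes rose in TM3, and Scd2 fell in TM4. Scd1 (ENSMUSG00000037071, mm10 chr19:44394451-44407709, minus strand) had 835, 899 and 788 CPM in TM4 with MEHP and 832, 859 and 780.1 CPM with DMSO. In the TM3 line it had 169, 169 and 172 CPM with MEHP, against 108, 109.6 and 107 CPM with DMSO. The TM4 groups overlapped, and the TM3 groups were tight and apart. The log2 fold change of Scd1 was 0.03 ± 0.05 in TM4 (edgeR adjusted p = 0.722) and 0.65 ± 0.06 in TM3 (edgeR adjusted p = 7.62e-10), and the difference was -0.62 ± 0.08 (edgeR adjusted p = 3.54e-07).

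Scd2 (ENSMUSG00000025203, mm10 chr19:44293676-44306864, plus strand) had the highest level per length of the 39 genes in every group. It had 3868, 3948 and 3542 CPM in TM4 with MEHP, against 4528, 4697 and 4060.3 CPM with DMSO. For TM3 the values were 2637, 2606 and 2688 CPM with MEHP, against 1860.5, 1882 and 1948 CPM with DMSO. The MEHP libraries all lay below the DMSO libraries in TM4 and above them in TM3. Scd2 fell by 0.23 ± 0.05 on the log2 scale in TM4 (edgeR adjusted p = 0.00192) and rose by 0.48 ± 0.06 in TM3 (edgeR adjusted p = 1.76e-07), and the difference was -0.71 ± 0.08 (edgeR adjusted p = 6.42e-08). The share of Scd1 in the summed level of Scd1 and Scd2, per length, was 20.02% ± 0.430 in TM4 with MEHP and 17.4% ± 0.391 with DMSO, against 6.76% ± 0.0424 in TM3 with MEHP and 6.06% ± 0.177 with DMSO (SD, n = 3 each). The ratio of Scd1 to Scd2 was higher in every library with MEHP than in any with DMSO in both lines (exact permutation p = 0.1 in each, the smallest possible). Scd1 shares 2.58% and Scd2 0.879% of its 100-base transcript windows with other genes.

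The elongases add carbon units to fatty acids, each with its own chain preference. Of 7 genes 4 were tested, Elovl1, Elovl5, Elovl6 and Elovl7, and Elovl3 had 0 counts in every library. Elovl5, which elongates polyunsaturated chains, had 292, 327 and 278 CPM in TM4 with MEHP, against 326, 353 and 319 CPM with DMSO. TM3 gave 209.7, 193 and 203 CPM with MEHP, against 176, 168 and 166 CPM with DMSO. The TM4 groups overlapped and the TM3 groups did not. Elovl5 fell by 0.15 ± 0.06 on the log2 scale in TM4 (edgeR adjusted p = 0.0384) and rose by 0.24 ± 0.06 in TM3 (edgeR adjusted p = 0.00297), with a difference of -0.40 ± 0.08 (edgeR adjusted p = 0.000426). The TM4 fall was lost with upper-quartile factors, in a fit of the 6 TM4 libraries and without any of 5 libraries (edgeR adjusted p = 0.0864 without TM4 MEHP replicate 1, 0.189 without TM4 MEHP replicate 3, 0.0563 without TM4 DMSO replicate 1, 0.170 without TM4 DMSO replicate 2 and 0.0532 without TM3 MEHP replicate 3).

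Elovl6, which turns palmitate into stearate, had 87.6, 87.8 and 87.1 CPM in TM4 with MEHP and 84.8, 86.1 and 81.2 CPM with DMSO. In TM3 it had 48.8, 54.4 and 53.8 CPM with MEHP, against 44.8, 44.3 and 45.7 CPM with DMSO. The libraries with MEHP stood above those with DMSO in both lines, by little in TM4. Elovl6 rose by 0.22 ± 0.06 in TM3 (edgeR adjusted p = 0.0126), a call that was lost without TM3 MEHP replicates 2 or 3 (edgeR adjusted p = 0.0776 and 0.0661), and 0.06 ± 0.06 in TM4 did not pass. Elovl1, which makes very long saturated chains, averaged 65.4 ± 1.38 CPM in TM4 with MEHP and 73.9 ± 1.89 CPM with DMSO (SD, n = 3 each) and fell by 0.18 ± 0.06 on the log2 scale (edgeR adjusted p = 0.0298). That fall did not pass without a filter or without any of 4 libraries (edgeR adjusted p = 0.0707 without TM4 MEHP replicate 1, 0.0694 without TM4 MEHP replicate 2, 0.109 without TM4 DMSO replicate 1 and 0.0544 without TM4 DMSO replicate 3). In TM3 Elovl1 averaged 46.3 ± 3.07 CPM with MEHP and 50.8 ± 2.46 CPM with DMSO (SD, n = 3 each) and did not pass.

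The front-end desaturases Fads1 and Fads2 carry out the delta-5 and delta-6 steps on the way to arachidonic and docosahexaenoic acid. Fads1 rose in TM3 and Fads2 in TM4. Fads1 had 476, 505 and 451 CPM in TM4 with MEHP and 458, 462 and 431 CPM with DMSO. The TM3 libraries had 694, 667 and 687 CPM with MEHP, against 566, 554 and 567 CPM with DMSO. The TM3 groups were apart, and the TM4 groups overlapped. Fads1 rose by 0.28 ± 0.05 in TM3 (edgeR adjusted p = 0.000160) and stood at 0.08 ± 0.05 in TM4, and the difference of -0.19 ± 0.07 (edgeR adjusted p = 0.0423) was lost with upper-quartile factors, without a filter and without any of 9 libraries (edgeR adjusted p = 0.0915 without TM4 MEHP replicate 3, 0.0875 without TM4 DMSO replicate 1, 0.103 without TM4 DMSO replicate 2, 0.0981 without TM3 MEHP replicate 1, 0.0528 without TM3 MEHP replicate 2, 0.0892 without TM3 MEHP replicate 3, 0.0636 without TM3 DMSO replicate 1, 0.0785 without TM3 DMSO replicate 2 and 0.0719 without TM3 DMSO replicate 3).

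Fads2 (ENSMUSG00000024665, mm10 chr19:10064164-10101503, minus strand) had 139, 145 and 139 CPM in TM4 with MEHP, against 109, 118 and 116 CPM with DMSO. TM3 libraries showed 466, 455 and 471 CPM with MEHP and 472, 482 and 483 CPM with DMSO. All TM4 libraries with MEHP were above those with DMSO, and the TM3 libraries with MEHP were just below. Fads2 rose by 0.30 ± 0.05 in TM4 (edgeR adjusted p = 2.68e-05), stood at -0.05 ± 0.05 in TM3 (edgeR adjusted p = 0.592), and differed by 0.35 ± 0.07 (edgeR adjusted p = 0.000349). The ratio of Fads1 to Fads2 per length was 1.42 to 1.52 in TM4 with MEHP, against 1.61 to 1.84 with DMSO, and 0.636 to 0.649 in TM3 with MEHP, against 0.501 to 0.524 with DMSO. The groups did not overlap in either line (exact permutation p = 0.1 in each, the smallest possible), and the ratio was lower with MEHP in TM4 and higher with MEHP in TM3. Levels and ratios per length rest on the table's gene models, which differ from GENCODE release M21 for Scd1, Scd2, Gpam and Fads1 to Fads3. For Fads2 the table has 1508 bases and GENCODE 3295. Fads3, a desaturase of long-chain bases in sphingolipids, averaged 139 ± 4.86 CPM in TM4 with MEHP and 131 ± 2.73 CPM with DMSO, and 71.1 ± 1.25 CPM in TM3 with MEHP against 62.6 ± 1.96 CPM with DMSO (SD, n = 3 each). It rose by 0.19 ± 0.06 in TM3 (edgeR adjusted p = 0.0190), which was lost without a filter and without any of 3 libraries (edgeR adjusted p = 0.0786 without TM3 MEHP replicate 1, 0.0979 without TM3 DMSO replicate 1 and 0.0536 without TM3 DMSO replicate 3).

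Of the 3 regulators only Srebf1 was expressed at a level that could be tested. Srebf1 (ENSMUSG00000020538, mm10 chr11:60199089-60222581, minus strand) had 124, 127 and 130.5 CPM in TM4 with MEHP, against 156, 149 and 156 CPM with DMSO. In the TM3 line it had 169, 173 and 165 CPM with MEHP, against 156, 149.7 and 156 CPM with DMSO. The MEHP libraries were lower in TM4 and higher in TM3, with no overlap in either line. Srebf1 fell by 0.27 ± 0.05 on the log2 scale in TM4 (edgeR adjusted p = 8.51e-05), and 0.14 ± 0.05 in TM3 did not pass (edgeR adjusted p = 0.0588); the difference was -0.41 ± 0.07 (edgeR adjusted p = 5.55e-05). In TM3 it passed with a stricter filter, in a fit of the 6 TM3 libraries (edgeR adjusted p = 0.0232) and without TM4 MEHP replicates 1 or 3 (edgeR adjusted p = 0.0376 and 0.0365). Mlxipl, the gene of the glucose-sensing factor ChREBP, had 0, 1 and 0 counts in TM4 with MEHP and 2, 2 and 0 with DMSO, and 0, 0 and 0 in TM3 with MEHP and 0, 0 and 1 with DMSO. Thrsp, a lipogenic nuclear protein of liver and fat, had at most 5 counts in a library. Mlxipl stayed within the limit of 3 counts in every library, and Thrsp in all but 2.

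The long-chain acyl-CoA synthetases activate free fatty acids, and Acsl3, which sits on lipid droplets, moved in opposite directions in the lines. Acsl3 (ENSMUSG00000032883, mm10 chr1:78657825-78707743, plus strand) had 198, 217 and 208 CPM in TM4 with MEHP, against 235, 236 and 229 CPM with DMSO. For TM3 the values were 59.2, 62.8 and 55.8 CPM with MEHP, against 42.2, 38.7 and 39.02 CPM with DMSO. The groups were apart in both lines, with MEHP lower in TM4 and higher in TM3. Acsl3 fell by 0.17 ± 0.05 on the log2 scale in TM4 (edgeR adjusted p = 0.0154; 0.0673 without TM4 MEHP replicate 1, where it no longer passed) and rose by 0.57 ± 0.06 in TM3 (edgeR adjusted p = 5.02e-08). Its difference of -0.74 ± 0.08 (edgeR adjusted p = 5.84e-08) was the largest in size among the 15 genes that passed this test.

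Acsl1, which feeds both oxidation and triglyceride synthesis in other tissues, had 21.7, 20.1 and 21.4 CPM in TM4 with MEHP, against 16.6, 14.5 and 17.0 CPM with DMSO. TM3 gave 21.0, 24.3 and 21.7 CPM with MEHP and 19.7, 18.4 and 19.9 CPM with DMSO. The groups were apart in both lines. Acsl1 rose by 0.40 ± 0.09 in TM4 (edgeR adjusted p = 0.00167), while 0.21 ± 0.09 in TM3 did not pass (edgeR adjusted p = 0.125), and the difference of 0.18 ± 0.13 did not pass. Genes on the opposite strand overlap 9.91% of the exon bases of Acsl1, and the strand setting of the counting is not given in the sources used here. Acsl5 averaged 45.4 ± 0.757 CPM in TM4 with MEHP, 44.5 ± 3.45 CPM in TM4 with DMSO, 60.7 ± 2.30 CPM in TM3 with MEHP and 56.4 ± 3.45 CPM in TM3 with DMSO (SD, n = 3 each), and passed in neither line. Per length Acsl3 made up 80.7% ± 0.942 of the summed synthetase level in TM4 with MEHP and 83.4% ± 0.590 with DMSO, against 48.2% ± 2.06 in TM3 with MEHP and 40.6% ± 0.783 with DMSO (SD, n = 3 each).

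Of the 6 acyltransferases of glycerolipid assembly, Agpat1 and Agpat2 rose in TM4, and the others did not pass in either line. Gpam, the mitochondrial enzyme that adds the first chain to glycerol 3-phosphate, had 117, 98.4 and 101 CPM in TM4 with MEHP and 119.9, 109 and 113 CPM with DMSO. In TM3 it had 114, 114 and 113 CPM with MEHP and 104, 116 and 101 CPM with DMSO. The groups overlapped in both lines. The log2 fold change of Gpam was -0.11 ± 0.06 in TM4 (edgeR adjusted p = 0.184; 0.0149 without TM4 MEHP replicate 1, where it fell) and 0.09 ± 0.06 in TM3 (edgeR adjusted p = 0.400).

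Agpat1 (ENSMUSG00000034254, mm10 chr17:34604262-34613449, plus strand) adds the second chain to give phosphatidic acid. It had 128, 113 and 124 CPM in TM4 with MEHP, against 90.7, 85.3 and 100.4 CPM with DMSO. The TM3 libraries had 92.1, 87.2 and 92.8 CPM with MEHP and 91.4, 90.1 and 96.2 CPM with DMSO. Every TM4 library with MEHP exceeded those with DMSO, and the TM3 groups overlapped. Agpat1 rose by 0.40 ± 0.06 in TM4 (edgeR adjusted p = 7.37e-06), stood at -0.03 ± 0.06 in TM3 (edgeR adjusted p = 0.822), and differed by 0.43 ± 0.09 (edgeR adjusted p = 0.000403). Agpat1 and Agpat2 catalyse the same step, and Agpat2 is the main form in fat tissue.

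Agpat2 had 15.3, 16.2 and 14.2 CPM in TM4 with MEHP, against 12.4, 11.6 and 12.8 CPM with DMSO. TM3 libraries showed 22.3, 21.5 and 22.3 CPM with MEHP and 23.8, 24.9 and 24.9 CPM with DMSO. The MEHP libraries were above those with DMSO in TM4 and below them in TM3. Agpat2 rose by 0.32 ± 0.10 in TM4 (edgeR adjusted p = 0.0117) and stood at -0.15 ± 0.09 in TM3 (edgeR adjusted p = 0.253), with a difference of 0.47 ± 0.13 (edgeR adjusted p = 0.00688). Its TM4 rise was lost without TM4 MEHP replicate 2 or TM4 DMSO replicate 2 (edgeR adjusted p = 0.0563 and 0.0774). Agpat3 passed as lower in TM4 with RLE factors, in DESeq2 and without TM4 MEHP replicate 1 (edgeR adjusted p = 0.0371), and Agpat5 passed as lower in TM3 in a fit of the 6 TM3 libraries and without TM4 MEHP replicate 2 (edgeR adjusted p = 0.0413). Genes on the opposite strand overlap 18.9% of the exon bases of Agpat5. Agpat1 made up 51.8% ± 1.93 of the summed Agpat level per length in TM4 with MEHP and 44.2% ± 1.49 with DMSO, against 34.2% ± 0.0876 in TM3 with MEHP and 33.4% ± 1.02 with DMSO (SD, n = 3 each).

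The lipins remove the phosphate from phosphatidic acid to give diacylglycerol. Lpin1 had 82.9, 87.8 and 82.7 CPM in TM4 with MEHP, against 96.8, 101 and 88.8 CPM with DMSO. In the TM3 line it had 23.4, 25.4 and 24.7 CPM with MEHP and 26.7, 24.7 and 24.7 CPM with DMSO. The TM4 groups did not overlap, and the TM3 groups did. Lpin1 fell by 0.18 ± 0.06 on the log2 scale in TM4 (edgeR adjusted p = 0.0261) and stood at -0.05 ± 0.07 in TM3 (edgeR adjusted p = 0.718). The fall was lost without any of 4 libraries (edgeR adjusted p = 0.0634 without TM4 MEHP replicate 1, 0.0701 without TM4 MEHP replicate 3, 0.0760 without TM4 DMSO replicate 1 and 0.124 without TM4 DMSO replicate 2).

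Lpin2 rose in both lines. It had 139, 144 and 127 CPM in TM4 with MEHP, against 125, 122 and 117 CPM with DMSO. For TM3 the values were 72.9, 73.5 and 76.4 CPM with MEHP, against 55.7, 60.0 and 61.2 CPM with DMSO. The groups were apart in both lines. The rise was 0.17 ± 0.06 in TM4 (edgeR adjusted p = 0.0197) and 0.33 ± 0.06 in TM3 (edgeR adjusted p = 0.000161), and the TM4 call was lost in DESeq2 and without any of 3 libraries (edgeR adjusted p = 0.111 without TM4 MEHP replicate 2, 0.0687 without TM4 DMSO replicate 2 and 0.0833 without TM4 DMSO replicate 3). The ratio of Lpin1 to Lpin2 per length was 0.753 to 0.824 in TM4 with MEHP against 0.957 to 1.05 with DMSO, and 0.407 to 0.437 in TM3 with MEHP against 0.512 to 0.607 with DMSO. It was lower with MEHP in both lines without overlap (exact permutation p = 0.1 in each, the smallest possible). Not every ratio examined moved apart. That of Dgat2 to Dgat1 overlapped in both lines (exact permutation p = 0.2 in TM4 and 0.3 in TM3). The ratio of Acaca to Acacb overlapped in TM4 (exact permutation p = 0.5) and was higher with MEHP in TM3 without overlap. Scd1 to Fasn was higher with MEHP in both lines without overlap.

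The last step of triglyceride synthesis is carried by Dgat1 and Dgat2, and neither passed in TM3. Dgat1 had 41.2, 40.9 and 44.5 CPM in TM4 with MEHP and 45.0, 41.7 and 43.2 CPM with DMSO. TM3 gave 26.8, 23.0 and 23.3 CPM with MEHP and 29.6, 29.2 and 26.4 CPM with DMSO. The groups overlapped in both lines, and the log2 fold change was -0.04 ± 0.07 in TM4 (edgeR adjusted p = 0.769) and -0.22 ± 0.08 in TM3 (edgeR adjusted p = 0.0593). In TM3 Dgat1 passed as lower with RLE factors, with a stricter filter, in a fit of the 6 TM3 libraries and without TM3 MEHP replicate 1 or TM3 DMSO replicate 3 (edgeR adjusted p = 0.0301 and 0.0490).

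Dgat2 had 15.2, 11.9 and 18.8 CPM in TM4 with MEHP and 10.6, 9.95 and 13.96 CPM with DMSO. In TM3 it had 9.83, 9.44 and 8.06 CPM with MEHP and 9.21, 7.60 and 9.99 CPM with DMSO. The groups overlapped in both lines. Dgat2 rose by 0.41 ± 0.15 in TM4 (edgeR adjusted p = 0.0366) and stood at 0.03 ± 0.16 in TM3 (edgeR adjusted p = 0.938). The TM4 call was lost in DESeq2, in a fit of the 6 TM4 libraries and without any of 4 libraries (edgeR adjusted p = 0.0664 without TM4 MEHP replicate 1, 0.267 without TM4 MEHP replicate 3, 0.132 without TM4 DMSO replicate 1 and 0.200 without TM4 DMSO replicate 2). Pnpla3, a lipid droplet protein of liver and fat, had at most 1 count in a library.

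Without MEHP the lines differed in most of these genes. Of the 32 tested genes 17 were higher and 12 lower in TM4 than in TM3, both in DMSO, and Agpat1, Srebf1 and Gpam did not pass. Among all genes 40.0% were higher and 42.0% lower, and 90.6% of the lipid synthesis genes passed against 82% of all genes. These counts include Fads6, Elovl7 and Lpin3, which passed the filter through the line with most of their counts. Their calls between the lines are therefore no support. The stricter filter of 10 CPM in 3 libraries leaves them out, and of its 29 genes only Dgat2 lost its call. These DMSO libraries are the same ones that the MEHP responses are set against. Scd1 was higher in TM4 by 2.93 ± 0.06 on the log2 scale (edgeR adjusted p = 3.31e-29), Acsl3 by 2.54 ± 0.06 (edgeR adjusted p = 3.88e-27), Acss2 by 2.28 ± 0.15 (edgeR adjusted p = 2.56e-15) and Lpin1 by 1.91 ± 0.07 (edgeR adjusted p = 4.24e-22). Scd2, Me1, Fads3 and Lpin2 were also higher, by 1.22 ± 0.06, 1.09 ± 0.06, 1.06 ± 0.05 and 1.04 ± 0.06. The libraries of these 8 genes did not overlap between the lines.

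Fads2 was lower in TM4, at -2.07 ± 0.05 on the log2 scale (edgeR adjusted p = 1.85e-26), and Agpat3 at -1.77 ± 0.05 (edgeR adjusted p = 6.78e-24), with 74.6, 72.0 and 72.5 CPM in TM4 against 249, 254 and 244 CPM in TM3. Acaca, Slc25a1 and Agpat2 followed at -1.05 ± 0.08, -1.01 ± 0.06 and -1.0 ± 0.09. Fasn, in contrast to the carboxylase genes, was higher in TM4 at 0.45 ± 0.06 (edgeR adjusted p = 1.84e-07), and Acly stood at 0.55 ± 0.05, Elovl5 at 0.97 ± 0.06, Elovl6 at 0.90 ± 0.06 and Dgat1 at 0.61 ± 0.08. Fads1 was lower at -0.32 ± 0.05. Dgat2, at 0.36 ± 0.16, passed (edgeR adjusted p = 0.0380) but not in DESeq2, with upper-quartile factors, with a stricter filter or without any of 3 libraries (edgeR adjusted p = 0.255 without TM4 DMSO replicate 3, 0.0588 without TM3 DMSO replicate 1 and 0.175 without TM3 DMSO replicate 2). The other genes that passed were Elovl1, Agpat4, Acacb, Agpat5, Acsl5 and Acsl1, at 0.54, 0.86, -0.83, -0.75, -0.34 and -0.27, and Acsl1 did not pass without TM4 DMSO replicate 2 (edgeR adjusted p = 0.0830).

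Low-count genes among these had most of their counts in 1 line, which is how they passed the filter. Fads6 had 3, 1 and 0 counts in the TM4 libraries with DMSO against 28, 24 and 32 in those of TM3. Elovl7 had 1, 5 and 1 counts in TM4 against 44, 29 and 26 in TM3. Lpin3 had 25, 30 and 65 counts in TM4 against 7, 1 and 3 in TM3. Fads6 and Elovl7 lay at or near the limit of 3 counts in TM4, and Lpin3 did so in most TM3 libraries. None of the 3 passed for MEHP in either line.

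**Figure D4:**
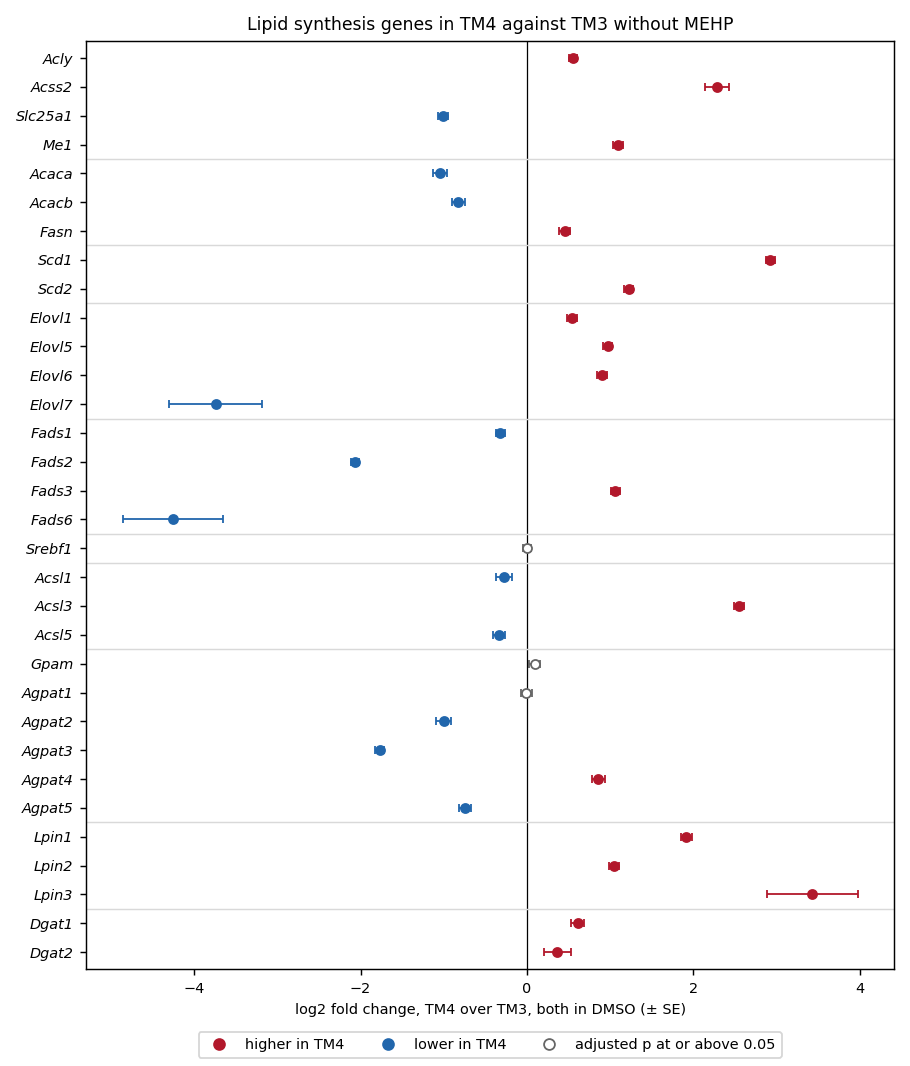
Log2 fold change of TM4 over TM3, both in DMSO (x axis), for the 32 tested genes with SE bars; red points are higher and blue points lower in TM4, open points did not pass, and grey lines part the functional groups. Scd1 and Acsl3 lie at 2.93 and 2.54, Fads2 at -2.07, and Srebf1, Gpam and Agpat1 lie close to 0; the widest bars belong to Elovl7, Fads6 and Lpin3, which have few counts.

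RNA levels per length were compared within families in CPM per kilobase of gene model. Scd2 stood at 694 ± 39.5 in TM4 with MEHP, 812 ± 60.5 in TM4 with DMSO, 485 ± 7.60 in TM3 with MEHP and 348 ± 8.41 in TM3 with DMSO (mean ± SD, n = 3 each). The next level in TM4 was that of Scd1, at 174 ± 11.5 with MEHP and 170.3 ± 8.31 with DMSO. In TM3 no order is given for the levels after Scd2, since Fads1 and Fads2 depend on which gene models are used. In each of the groups Elovl5 had the largest share of the elongase family, at 69.2% ± 1.85 in TM4 with MEHP, 70.1% ± 1.18 in TM4 with DMSO, 69.0% ± 1.51 in TM3 with MEHP and 64.9% ± 0.326 in TM3 with DMSO. Agpat3 made up 10.9% ± 0.340 and 13.5% ± 0.767 of the Agpat level in TM4 with MEHP and with DMSO, against 34.5% ± 0.338 and 34.7% ± 0.881 in TM3 with MEHP and with DMSO.

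**Figure D5:**
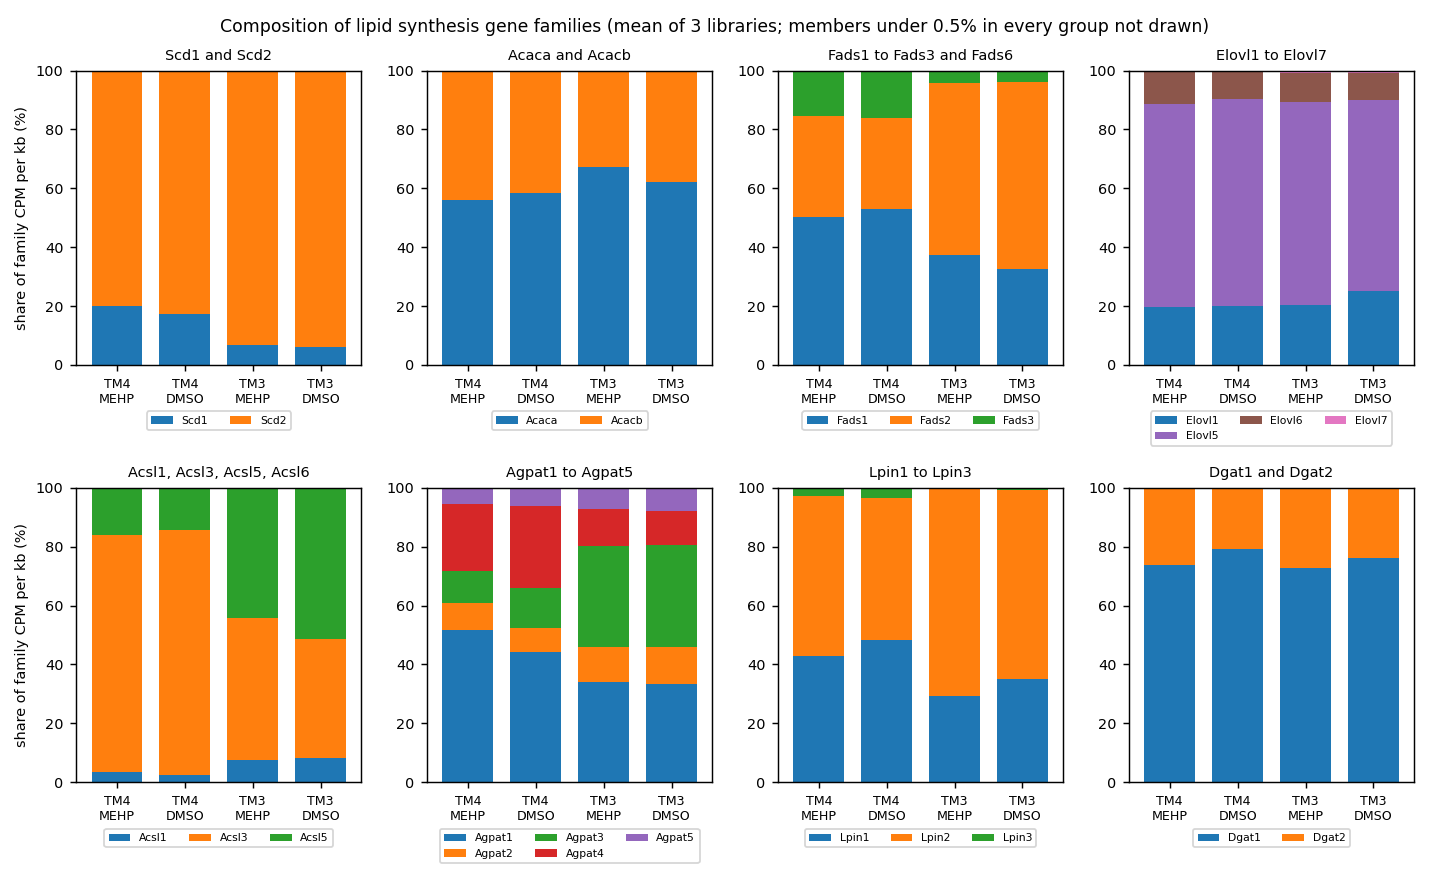
Share of each gene in the summed CPM per kilobase of its family (y axis, percent), as means of 3 libraries for the 4 groups; families are Scd, Acaca with Acacb, Fads, Elovl, Acsl, Agpat, Lpin and Dgat. Acsl3 takes 80.7% in TM4 with MEHP and 83.4% with DMSO, against 48.2% in TM3 with MEHP and 40.6% with DMSO, and Acsl5 fills most of the rest in TM3; shares in the Fads family depend on the table's gene models.

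Other genes of the pathway were counted from lists of related genes. Of 20 regulators around SREBP and LXR 19 were tested, and 2 rose and 6 fell with MEHP in TM4, against 1 and 2 in TM3. In all 42.1% of the list passed in TM4 against 30.9% of all genes, and 15.8% passed in TM3 against 16.5% of all genes. The median log2 fold change of the list was -0.10 in TM4, and 0.00 over all genes. Lpcat3, which inserts polyunsaturated chains into phospholipids and is a target of LXR, averaged 81.0 ± 2.41 CPM in TM4 with MEHP against 39.3 ± 0.722 CPM with DMSO, and 126 ± 2.09 CPM in TM3 with MEHP and 121 ± 2.28 CPM with DMSO (SD, n = 3 each). It rose by 1.04 ± 0.06 in TM4 (edgeR adjusted p = 6.34e-15). Mid1ip1, an activator of acetyl-CoA carboxylase, stood at -0.41 ± 0.06 in TM4 (edgeR adjusted p = 7.25e-06) and 0.28 ± 0.07 in TM3 (edgeR adjusted p = 0.00297). The ubiquitin ligase gene Rnf145 fell by 0.37 ± 0.05 on the log2 scale in TM4 (edgeR adjusted p = 3.38e-06), and Mbtps2, a protease that releases SREBP, rose by 0.27 ± 0.08 (edgeR adjusted p = 0.00923). Mlx, the partner of ChREBP, fell in TM3, at -0.28 ± 0.08 (edgeR adjusted p = 0.0159).

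Of 11 genes of NADPH supply 5 rose in TM4 and 3 rose in TM3, and the others did not pass. The share that passed was 45.5% in TM4 against 30.9% of all genes, and 27.3% in TM3 against 16.5% of all genes. The median was 0.16 in TM4 and 0.15 in TM3. Those of TM4 included the pentose phosphate genes Rpia at 0.71 ± 0.13, Pgd at 0.43 ± 0.06, G6pdx at 0.28 ± 0.06 and Rpe at 0.26 ± 0.07. In TM3 they were Tkt at 0.38 ± 0.05, H6pd at 0.25 ± 0.05 and Idh1 at 0.21 ± 0.07. Of 6 partners of the elongases Hacd4, a dehydratase of the elongation cycle, fell by 0.48 ± 0.07 on the log2 scale in TM4 and rose by 0.22 ± 0.05 in TM3, with a difference of -0.70 ± 0.08 (edgeR adjusted p = 2.79e-07), and no other partner passed within a line. The share that passed was 16.7% in each line, against 30.9% of all genes in TM4 and 16.5% in TM3.

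Of 17 further genes of glycerolipid assembly 14 were tested. In TM4 3 fell and the others did not pass, and the 3 were Mboat1 at -0.41 ± 0.13, Cds2 at -0.23 ± 0.06 and Gpat4 at -0.13 ± 0.05. In TM3 4 rose and the others did not pass, and the 4 were Mogat2 at 0.49 ± 0.10, Mboat1 at 0.42 ± 0.11, Chpt1 at 0.28 ± 0.07 and Acsl4 at 0.21 ± 0.05. Mboat1, a lysophospholipid acyltransferase, thus fell in TM4 and rose in TM3. The share that passed was 21.4% in TM4 against 30.9% of all genes, and 28.6% in TM3 against 16.5%. The medians were -0.08 in TM4 and 0.05 in TM3. Of 12 genes that handle acyl chains 9 were tested, and 7 rose and 2 fell in TM4, with a median of 0.56, against 2 and 2 in TM3, with a median of 0.01. All 9 tested genes passed in TM4 and 44.4% in TM3, against 30.9% and 16.5% of all genes. The mitochondrial synthesis genes Oxsm and Mcat rose in TM4 by 1.26 ± 0.24 and 0.62 ± 0.09, and the acyl-CoA thioesterase gene Acot2 rose by 0.78 ± 0.06 in TM4 and 0.51 ± 0.07 in TM3. Fabp5, a fatty acid carrier, averaged 24.7 ± 2.49 CPM in TM4 with MEHP against 43.7 ± 2.37 CPM with DMSO, and 9.49 ± 0.660 CPM in TM3 with MEHP against 5.06 ± 0.573 CPM with DMSO (SD, n = 3 each). It fell by 0.82 ± 0.09 on the log2 scale in TM4, rose by 0.90 ± 0.13 in TM3 and differed by -1.73 ± 0.16 (edgeR adjusted p = 1.15e-09). In TM3 the thioesterase gene Ppt1 and the acyl-CoA thioesterase gene Acot7 fell, at -0.34 ± 0.07 and -0.20 ± 0.06.

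Myoid and fibroblast markers moved with MEHP in TM4 as well. The sum of the 7 markers was 1997 to 2158 CPM with MEHP in TM4, against 3366 to 3648 CPM with DMSO, and 8460 to 8682 CPM in TM3 with MEHP, against 8017 to 8266 CPM with DMSO. In TM4 5 of the 6 tested markers fell, against 15.0% of all genes. They were Dcn at -1.51 ± 0.07, Acta2 at -1.22 ± 0.06, Col1a1 at -0.68 ± 0.05, Cnn1 at -0.63 ± 0.16 and Pdgfra at -0.44 ± 0.05. In TM3 Acta2 rose at 0.35 ± 0.07 and Dcn fell at -0.32 ± 0.06. The share of counts on mitochondrially encoded genes was 1.46% to 1.51% in TM4 with MEHP, against 1.66% to 1.72% with DMSO, and 1.79% to 1.82% in TM3 with MEHP, against 1.82% to 1.87% with DMSO. The part of either in the lipid synthesis results was not tested.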

How the data were processed

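RNA of the TM4 and TM3 lines, 12 libraries with 3 in each of 4 groups, was captured on poly-T beads and sequenced as paired reads, per the labels' protocols. The authors deposited raw read counts per gene. The submitters' processing notes name featureCounts 1.5.0-p3, the aligner HISAT2 2.0.5, DESeq2 1.20.0, edgeR, StringTie 1.3.3b and the build mm10, but not how each was set. Annotation release and strand setting: not given in the sources used here. Of the lines of the file 11 were empty and are not analysed here.

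From these counts, TMM factors, filterByExpr and a robust quasi-likelihood fit of group means over all 12 libraries were computed with edgeR 4.0.16 in R 4.3.3 (8 residual degrees of freedom, biological coefficient of variation 6%). Adjusted p-values are Benjamini-Hochberg over 15700 genes. The SE is the size of the log2 fold change divided by the square root of F. CPM is the count scaled to a TMM-adjusted total of 1000000, and library totals and the limit of 3 counts set the precision. Ratios within a library were compared by exact permutation tests. The code was tested on simulated data.

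A gene was named with its values in each library if it passed and was among the 12 with the largest change in a comparison, or was one of Acly, Acaca, Fasn, Scd1, Scd2, Elovl6, Fads1, Fads2, Srebf1, Mlxipl, Gpam, Lpin1, Dgat1 and Dgat2. Some genes that qualified only between the lines were given otherwise. Fads3 was given as means, and Agpat3, Fads6, Elovl7 and Lpin3 in the DMSO libraries only. From other lists up to 4 genes that passed, taken from those with the largest changes, were named for MEHP in each line. None were named for the lines under DMSO. The members and lists were chosen with earlier results of these data known. The alternatives comprised a stricter filter of 10 CPM in 3 libraries or none, RLE or upper-quartile factors, a replicate block, fits of the 6 libraries of a line, DESeq2 1.42.0 and leaving out each library. Adding the counts of Gm5182 to Acaca was chosen after seeing the data. No 2 libraries of a group agreed within sampling noise (chi-square per degree of freedom 2.40 to 11.4). Promoter windows come from RefSeq GRCm38.p6.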

Additional observations from a re-analysis of the deposited data

Results flagged for a closer look

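In 15 of the 32 tested genes the response to MEHP differed between TM4 and TM3, against 26.3% of all genes. This is the direct test of the difference (edgeR quasi-likelihood, adjusted over all genes), TM4 minus TM3 on the log2 scale. The difference was -0.74 for Acsl3, -0.71 for Scd2, -0.62 for Scd1, -0.59 for Acss2, -0.56 for Fasn, -0.53 for Me1, -0.52 for Acaca, -0.41 for Srebf1, -0.40 for Elovl5, -0.24 for Acly and -0.19 for Fads1. It was 0.25 for Slc25a1, 0.35 for Fads2, 0.43 for Agpat1 and 0.47 for Agpat2. Among these Acsl3, Scd2 and Elovl5 passed in both lines with opposite signs, and Acaca passed in both with the same sign. Several of these calls were lost when 1 library was left out. The difference was lost in 9 such fits for Fads1, 8 for Acss2 and 4 for Slc25a1. The TM4 call was lost in 5 for Elovl5, 4 for Acaca and 1 for Acsl3.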

How the results depend on the processing

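The counts of lipid synthesis genes kept within 1.5 times their value under RLE and upper-quartile factors, no filter, a stricter filter, the replicate block, fits of 6 libraries and DESeq2, apart from the count that fell in TM3. That count was 0, and became 1 with RLE factors, 1 with the stricter filter, 2 with the replicate block and 2 in the fit of the 6 TM3 libraries. In TM4 DESeq2 lost the rises of Acaca, Dgat2 and Lpin2 and gained the fall of Agpat3. RLE factors lost the rise of Acaca and gained the fall of Agpat3. Rises did not outnumber falls in TM4 with either. No gene that passed changed sign under any of these. Leaving out each library gave 5 to 9 rises and 4 to 7 falls in TM4, 11 to 15 rises and 0 to 1 falls in TM3, 3 to 4 positive and 9 to 12 negative differences, and 16 to 17 higher and 11 to 12 lower genes in TM4 under DMSO. Over all genes the calls then numbered 3745 to 4900 in TM4, 1742 to 2949 in TM3, 3458 to 4388 for the difference and 12757 to 13261 between the lines. The replicate numbers were not taken as pairs. Deviations of same-numbered MEHP and DMSO libraries correlated at 0.205, 0.0741 and 0.182 in TM4 and at 0.00576, 0.0481 and 0.0312 in TM3. Each MEHP library correlated best with the DMSO library of its own number in TM4. In TM3 replicates 2 and 3 did so and replicate 1 did not. The block added Agpat5, Dgat1, Fasn and Srebf1 to the calls in TM3 and changed no other call. The share of rises among all calls in TM4 was 51.5%, 45.1% with RLE factors, 55.4% with upper-quartile factors and 44.5% in DESeq2. Counts limit Fads6, Elovl7, Lpin3 and the 7 untested genes. The causes of these shifts were not tested.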
